A study of Mus musculus with 12 samples.

Results

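The comparison described here is Double against Npm1, that is, what differed between hematopoietic stem and progenitor cells (HSPCs) with both lesions and HSPCs with the Npm1 lesion alone, so that the Smc3 lesion is what the 2 groups do not share by label. Each gene's value is the log2 fold change of Double against WT minus that of Npm1 against WT, in which the WT group cancels. Its standard error (SE) is the root of the summed squared SEs of both. A gene with several transcripts was read from the one with the highest mean, and 10732 of 24016 genes had a mean of at least 50 normalized counts in both comparisons. The comparison rests on 6 of the 12 libraries, 3 of Double and 3 of Npm1, each set against the same 3 WT libraries, while the 3 Smc3 libraries enter only where named.

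All mice were C57BL/6, and the labels give their genotype only as WT, Smc3, Npm1 or Double. Mice of every group, WT included, received 7 doses of pIpC (1 mg/mL), a double-stranded RNA mimic that also induces interferon, every other day from 4 to 6 weeks of age. HSPCs were taken 4 to 6 weeks later by lysis of red cells and depletion of lineage-positive cells, and poly(A) RNA was sequenced without a record of strand. The labels name no allele, no Cre driver and no sex. They also do not tell if replicate libraries were from different mice, so the p-values measure only the spread between these libraries, as the authors' fits saw it.

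Cohesin is a ring of Smc1a, Smc3, Rad21 and a Stag subunit that holds sister chromatids together and extrudes chromatin loops. Npm1 is a nucleolar chaperone, and its cytoplasmic mutants in acute myeloid leukaemia (AML) keep HOXA and MEIS1 genes active. In HSPCs the choice between erythroid and myeloid fates depends on factors such as Gata1 and Klf1 on the red cell side and Cebpe, Gfi1 and Irf8 on the granulocyte and monocyte side. Dock1 activates Rac GTPases together with Elmo proteins, Rac2 is the Rac of blood cells, and the title of the series names both.

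Double libraries held 27.8 to 35.4 M reads on the kept transcript of each gene and Npm1 libraries 10.6 to 33.1 M. Both were estimated from the smallest steps of the deposited means, and reads elsewhere are not in them. The Double and WT libraries together had a summed mean of 2280 normalized counts of the Y-linked genes Ddx3y, Eif2s3y, Kdm5d and Uty, against 3.80 in the Npm1 and WT libraries, so Double held libraries of male mice and Npm1 and WT held next to no Y-linked reads. The Smc3 and WT libraries together had 2022, so Smc3 held libraries of male mice as well. Sex and genotype cannot be told apart in what follows. Of the 3 X-linked partners of these genes that were lower in Double, Eif2s3x stood at -0.66 ± 0.18, Kdm6a at -0.55 ± 0.20 and Kdm5c at -0.51 ± 0.16, while Ddx3x stood at -0.37 ± 0.19 and was not called. On the X chromosome 31 genes were higher and 17 lower of 339 (14.2%), beside 14.4% called of 10379 autosomal genes. The WT libraries had the same relative level in both comparisons for most genes, with a median log2 ratio of -0.002 and quartiles of -0.007 and 0.007. Of the called genes 45 differed in WT level by more than 0.2, and of these 9 by more than 1. Progenitor markers were present in all groups, and Kit, the stem cell factor receptor, stood at 6147 normalized counts in WT, 6000 in Npm1 and 5641 in Double. These levels, and those given below, were worked out from the deposited means and fold changes on the scale of the Npm1 comparison. This was done because the tables hold no values per library. Each level came from its own comparison, so the ratio of a Double level to an Npm1 level can differ from the difference or fold printed beside it. For Dock1 the implied WT level was 0.137 higher on the log2 scale in the Double comparison, and for Elane 0.225 higher.

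At an adjusted p under 0.05 (two-sided normal z test, Benjamini-Hochberg over all 10732 genes), 1549 genes differed between Double and Npm1, which is 14.4% of those tested. The 878 genes higher in Double were 8.18% of those tested and the 671 lower were 6.25%. The higher genes had the larger differences, with a median of 0.86 on the log2 scale against -0.55 for the lower genes, and 198 were higher and 34 lower by at least 1. The direction went with the level of the gene. Of the 2686 genes with the lowest means 371 were higher and 27 lower, and of the 2683 with the highest means 69 were higher and 371 lower. Median means in the Npm1 comparison were 350 normalized counts for higher genes, 1985 for lower genes and 777 for all, and the part of read level in the split was not tested. Higher genes made up 56.7% of the calls. Their share was 47.5% with a mean of at least 200 and 44.6% when the WT part of the variance was taken out. It was 75.1% once the median difference of -0.08 was set to 0 and 70.6% once the trend with GC content was removed. Removing that trend also moved values upward, from 0.62 to 0.67 for Cdkn1a and from 0.55 to 0.64 for Meis1. With the median difference set to 0 these genes stood at 0.70 and 0.63. The GC setting is thus not a check apart from that one, and the part of GC content alone was not tested. Genes just inside the limit of 50, from 50 to 55, had a median difference of 0.36 in size, and genes from 45 to 50 one of 0.33.

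**Figure D1:**
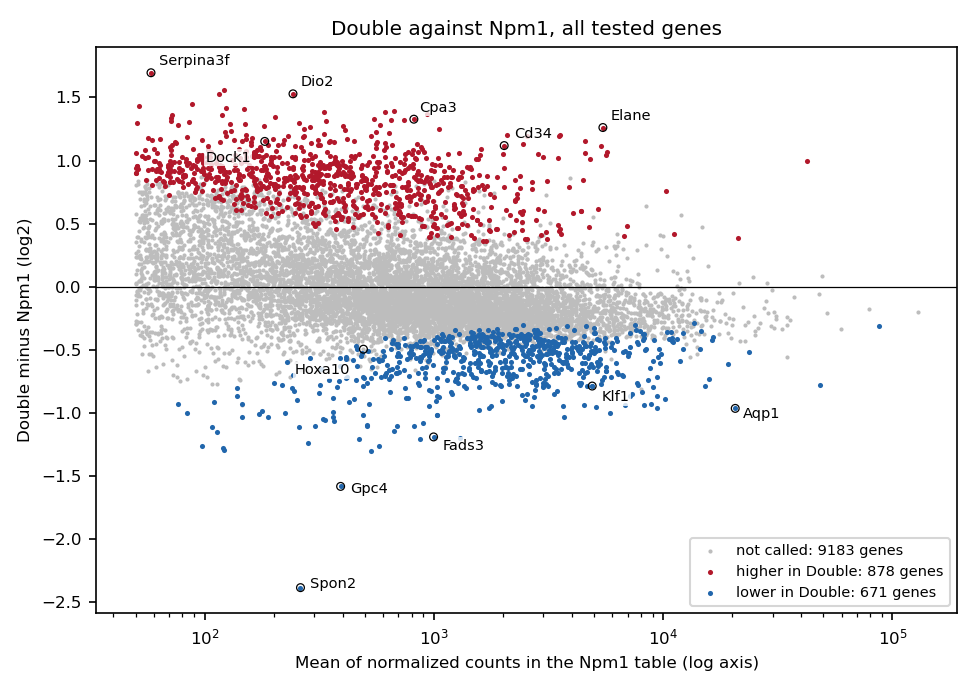
Difference between Double and Npm1 (log2, vertical axis) against the mean of normalized counts in the Npm1 comparison (log axis) for 10732 genes, with 878 higher genes in red, 671 lower genes in blue and the rest in grey. Higher genes lie mainly at low means and lower genes at high means, and Spon2 lies lowest at -2.38.

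Neither targeted transcript differed past the threshold. Smc3 stood at 7516 normalized counts in WT, 8269 in Npm1 and 7360 in Double, a difference of -0.16 ± 0.16 between Double and Npm1 (z test, adjusted p = 0.507). Npm1 stood at -0.28 ± 0.23 (adjusted p = 0.408 by the z test). With no allele named in the labels, it is not known if either lesion should show in the level of its transcript, so neither value checks a label. All 16 cohesin genes tested lay between -0.50 and -0.07, with a median of -0.19 beside -0.08 for all genes, and 1 was called lower, a share of 6.25% and so that of all genes. That gene was Wapal, the factor that releases cohesin from chromatin, at 7253 in WT, 9564 in Npm1 and 6718 in Double (-0.49 ± 0.16, z test, adjusted p = 0.0201), and it was not called once the median difference was set to 0. The other ring subunits stood at -0.20 ± 0.13 for Smc1a, -0.21 ± 0.12 for Rad21, -0.19 ± 0.15 for Stag2 and -0.07 ± 0.14 for Stag1, none called.

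Of 20 genes of basophils, mast cells and eosinophils 14 were higher in Double (70.0%) and 0 lower, beside 8.18% and 6.25% of all genes, with a median difference of 0.95. With the stricter Benjamini-Yekutieli adjustment 4 of the 20 were higher, beside 291 of all tested genes. Cpa3, a secretory granule protease of mast cells and basophils, stood at 953 normalized counts in WT, 683 in Npm1 and 1853 in Double. It was thus below WT in Npm1 and above WT in Double, and the difference of 1.33 ± 0.24, a 2.51-fold change, was the largest of the list (z test, adjusted p = 2.42e-05). Hdc, which makes histamine, went from 485 in Npm1 to 1244 in Double (1.22 ± 0.28) and Ms4a2, the beta chain of the high-affinity IgE receptor, from 507 to 1146 (1.11 ± 0.22). The basophil protease Mcpt8 went from 1134 to 2685 (1.09 ± 0.32) and the inhibitory receptor Cd200r1 from 63.9 to 159 (1.15 ± 0.30). Fcer1a, the alpha chain of the same IgE receptor, was not called at 0.69 ± 0.29, nor were Prss34 at 0.86 ± 0.35, Mitf at 0.47 ± 0.27, Gata2 at 0.21 ± 0.15 and Il1rl1 at -0.16 ± 0.17. With fewer cells of a type and less RNA per cell alike, bulk libraries give the same change, so the 2 cannot be told apart here or for any list below.

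Within this list 6 genes of eosinophil granules behaved apart from the rest, a split made after their values were seen. For Prg2 (major basic protein), Prg3, Epx (eosinophil peroxidase) and the ribonucleases Ear1, Ear2 and Ear6 the differences lay between 0.92 and 1.13, all called, while their summed mean was 3897 normalized counts in the Npm1 comparison and 17199 in the Double comparison. The WT level implied by the 2 comparisons differed by 1.05 to 1.90 on the log2 scale for these genes, so their fold changes were strongly moderated and their split into WT and Double levels is uncertain. Ear1 carried no p in a deposited comparison, which DESeq2 withholds when 1 library is an outlier for a gene. The ribonuclease copies may share reads. Only genes of this kind, these 6 with Ear3, Ear7 and Ear12, made up the 9 called genes whose implied WT level differed by more than 1. Of the other 14 members 8 were called higher, with a median of 0.90, and their summed level was 15072 in WT, 11498 in Npm1 and 20291 in Double.

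The promoters of Cpa3 and Ms4a2 are shown with those of 2 erythroid genes that were lower in Double, Klf1 and Rhd, because the GATA factors are known to act in both lineages. Each is the 250 bases before the annotated start in RefSeq on GRCm38.p6, a later build than the mm9 of the authors' alignment, written 5′ to 3′ on the strand of the gene. Capitals mark AGATAAG or its reverse complement CTTATCT, the GATA motif searched. The windows are chr3:20242182-20242431 (minus strand) for Cpa3, chr19:11623720-11623969 (minus) for Ms4a2, chr8:84901732-84901981 (plus) for Klf1 and chr4:134864286-134864535 (plus) for Rhd.
Cpa3: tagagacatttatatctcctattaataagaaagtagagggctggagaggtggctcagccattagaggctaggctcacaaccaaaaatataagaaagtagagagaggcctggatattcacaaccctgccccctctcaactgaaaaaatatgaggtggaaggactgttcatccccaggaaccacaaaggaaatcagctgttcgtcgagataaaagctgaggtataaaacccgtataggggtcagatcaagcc
Ms4a2: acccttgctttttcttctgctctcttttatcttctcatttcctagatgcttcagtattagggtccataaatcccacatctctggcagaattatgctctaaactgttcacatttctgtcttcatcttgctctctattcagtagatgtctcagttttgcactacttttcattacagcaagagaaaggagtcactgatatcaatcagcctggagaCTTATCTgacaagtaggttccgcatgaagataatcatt
Klf1: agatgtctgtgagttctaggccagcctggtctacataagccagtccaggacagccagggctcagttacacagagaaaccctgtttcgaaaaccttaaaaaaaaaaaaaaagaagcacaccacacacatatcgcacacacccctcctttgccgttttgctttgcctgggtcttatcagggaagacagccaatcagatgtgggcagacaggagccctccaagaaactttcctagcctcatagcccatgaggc
Rhd: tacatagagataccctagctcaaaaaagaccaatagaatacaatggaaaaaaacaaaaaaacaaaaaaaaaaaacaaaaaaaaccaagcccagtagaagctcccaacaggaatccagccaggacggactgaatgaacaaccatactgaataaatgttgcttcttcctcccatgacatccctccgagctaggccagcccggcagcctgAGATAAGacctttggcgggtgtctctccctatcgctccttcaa
The windows of Ms4a2 and Rhd each held 1 such motif, and those of Cpa3 and Klf1 held 0. The windows of Hdc and Aqp1, read in the same way and not shown, held 0 as well. Only the exact letters were searched. Close variants, such as agataaa in the Cpa3 window and cttatca in the Klf1 window, were not counted. A count of 0 thus does not show that a window lacks GATA sites, and the shares below carry the same limit. Of the 8207 tested genes with a RefSeq promoter 1.47% held it, beside 2.27% of the higher genes, 1.92% of the lower genes, 1 of 11 called basophil list members and 2 of 13 called erythroid members. The ETS motif GAGGAAG, read on either strand and bound by PU.1 among others, stood in 16.9% of the promoters of higher genes, 9.96% of those of lower genes and 10.9% of all. The E2F motif TTCCCGC, of genes of the S phase, stood in 3.93%, 8.24% and 7.32%. CCAAT boxes stood in 29.2%, 35.1% and 37.1%, and in 8 of the 13 erythroid promoters, Klf1 and Rhd included. The RUNX motif TGTGGTT, found in the Cpa3 window, stood in 4.39%, 2.87% and 3.18%, the AP-1 motif TGANTCA in 5.90%, 3.83% and 4.03%, the C/EBP motif TTGCNNAA in 8.93%, 6.51% and 7.32%, and the interferon motif GAAANNGAAA in 3.93%, 1.15% and 2.58%. These shares describe letters in a window and carry no test.

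Of 21 neutrophil and granule genes, 8 were higher in Double (38.1%) and 0 lower, beside 8.18% and 6.25% of all genes, with a median of 0.38. The azurophil granule proteases went from 4612 normalized counts in Npm1 to 12931 in Double for Elane (1.26 ± 0.29, z test, adjusted p = 0.000734), from 3714 to 9327 for Ctsg (1.15 ± 0.27) and from 4521 to 10896 for Prtn3 (1.07 ± 0.28). Mpo, the myeloperoxidase of the same granules, stood at 48720 in WT, 35912 in Npm1 and 82097 in Double (1.00 ± 0.29). The progenitor surface gene Ms4a3 stood highest at 1.37 ± 0.26, and the factors Gfi1 and Cebpe, which drive granulocyte maturation, at 1.16 ± 0.28 and 1.01 ± 0.34. Ficolin B (Fcnb) at 0.81 ± 0.35, the chemokine receptor Cxcr2 at 0.57 ± 0.33 and the lysozyme Lyz2 at 0.38 ± 0.35 were not called. Nor were 10 further members, from Lcn2 at -0.06 ± 0.32 to Retnlg at -0.20 ± 0.31, with Ltf, Camp, Ngp, Mmp8, Mmp9, Cd177, S100a8 and S100a9 between them. These 10 genes carry no p in a deposited comparison, as is so of 19 tested genes in all. DESeq2 withholds it for an outlier library, so their values near 0 are uncertain and do not set them apart from the genes called higher.

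Of 20 monocyte and dendritic cell genes 6 were higher (30.0%, beside 8.18% of all genes) and 1 lower (5.0%, near the 6.25% of all genes), with a median of 0.57. F13a1, a transglutaminase of monocytes, went from 3320 normalized counts in Npm1 to 8164 in Double (1.19 ± 0.27, z test, adjusted p = 0.000699), and the chemokine receptor Ccr2, which releases monocytes from marrow, from 935 to 1921 (0.97 ± 0.25). Ms4a6c, the cysteine protease Ctss, the Toll-like receptor partner Ly86 and the monocyte antigen Ly6c2 were higher by 0.93 to 1.02. Zbtb46, a factor of classical dendritic cells, was lower, at 358 in WT, 409 in Npm1 and 236 in Double (-0.75 ± 0.24, z test, adjusted p = 0.0181). Irf8 (0.51 ± 0.29), Csf1r (0.71 ± 0.30), Itgam (0.39 ± 0.31) and Klf4 (0.45 ± 0.35) were not called. All 8 MHC class II genes lay between 0.54 and 0.93, of which the peptide loading genes H2-DMb1 (0.93 ± 0.27) and H2-Oa (0.80 ± 0.29) were called.

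Of 21 stem and early progenitor genes 7 were higher (33.3%, beside 8.18% of all genes) and 1 lower (4.76%, near the 6.25% of all genes), with a median of 0.55. Cd34, a sialomucin of progenitors, stood at 2498 normalized counts in WT, 1554 in Npm1 and 3589 in Double (1.12 ± 0.24, z test, adjusted p = 0.000436). Prom1 (1.10 ± 0.29), the complement receptor-like Cd93 (0.94 ± 0.25), the ETS factor Erg (0.89 ± 0.22), Cd27 (0.88 ± 0.27), the transcription factor Hlf (0.84 ± 0.29) and Cd48 (0.74 ± 0.18) were higher as well. Of these, Cd48 was at 782 in WT and 937 in Npm1, so it did not lie below WT in Npm1 as the others did. Kit (-0.09 ± 0.13), Slamf1 (-0.11 ± 0.34), Ly6a (0.29 ± 0.30) and Mecom (0.18 ± 0.32) were not called, and Mllt3, a reader of acetylated histones that maintains stem cells, was lower at -0.62 ± 0.18.

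Receptors and adhesion molecules of leukocytes, where called, were mostly higher. Of 24 cytokine and growth factor receptors 9 were higher (37.5%) and 1 lower (4.17%), with a median of 0.63. Of 22 integrins and adhesion genes 9 were higher (40.9%) and 1 lower (4.55%), with a median of 0.68. The shares of all genes were 8.18% and 6.25%. Csf2rb, the shared beta chain for GM-CSF, IL-3 and IL-5, stood at 1111 normalized counts in WT, 652 in Npm1 and 1499 in Double (1.11 ± 0.25, z test, adjusted p = 0.000629). The granulocyte colony stimulating factor receptor Csf3r (0.99 ± 0.29), Il6ra (1.04 ± 0.32), both tumour necrosis factor receptors Tnfrsf1a (0.91 ± 0.28) and Tnfrsf1b (0.95 ± 0.29), Il18rap (0.88 ± 0.27), Il6st (0.72 ± 0.26) and Il2rg (0.58 ± 0.16) were higher, and the erythropoietin receptor Epor was the lower gene at -0.71 ± 0.18. Among adhesion genes the vitronectin receptor chain Itgav went from 167 in Npm1 to 353 in Double (1.03 ± 0.20, z test, adjusted p = 7.99e-05) and Itgal, of the integrin LFA-1, from 1289 to 2492 (0.88 ± 0.24). The fibronectin receptor chain Itga5 was lower at -0.44 ± 0.14, and the chains with the highest levels, Itga4 at 10253 and Itgb1 at 6028 normalized counts in Double, were not called at -0.27 ± 0.16 and -0.23 ± 0.15.

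Of 27 genes of DOCK, ELMO and RAC signalling 13 were higher and 0 lower, beside 8.18% and 6.25% of all genes, with a median of 0.42. Dock1 stood at 223 normalized counts in WT, 144 in Npm1 and 353 in Double, a difference of 1.15 ± 0.29 and a 2.22-fold change (z test, adjusted p = 0.00207). In the authors' deposited tables Dock1 was at -0.63 ± 0.21 in Npm1 against WT and at 0.53 ± 0.20 in Double against WT, so the difference between Double and Npm1 spans WT on both sides. Rac2 stood at 3289 in WT, 2057 in Npm1 and 3599 in Double (0.77 ± 0.21, z test, adjusted p = 0.00421), and here the authors' deposited tables put Double at 0.10 ± 0.15 against WT. The Dock1 partner Elmo1 went from 696 in Npm1 to 1601 in Double (1.13 ± 0.23), Elmo2 was at 0.70 ± 0.23 and Elmo3 was not called at 0.07 ± 0.30. Dock2, the main DOCK protein of leukocytes, was higher at 0.74 ± 0.20, as were Dock8 (0.45 ± 0.16) and Dock10 (0.42 ± 0.15), but Dock5 stood at -0.10 ± 0.24. Other exchange factors for Rac were higher too, namely Vav3 (1.04 ± 0.28), Vav1 (0.71 ± 0.18) and Tiam1 (0.67 ± 0.22), whereas Vav2 (0.35 ± 0.21) and Prex1 (0.36 ± 0.22) were not called. Negative regulators lay on the same side, with the GTPase inhibitor Arhgdib of blood cells at 1.02 ± 0.18 and the Rac GTPase activating protein Arhgap15 at 0.90 ± 0.22. Further members that were not called were Rac1 (0.13 ± 0.14), Arhgdia (0.03 ± 0.12), Pak2 (0.02 ± 0.13) and Crkl (-0.09 ± 0.12).

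The erythroid list was the one with the largest share of lower genes, at 21 of 27 lower and 0 higher beside 6.25% and 8.18% of all genes, with a median of -0.68. Klf1, the factor that activates globin and other red cell genes, stood at 4824 normalized counts in WT, 4981 in Npm1 and 2842 in Double (-0.79 ± 0.16, z test, adjusted p = 0.00011). The anchor of the red cell skeleton Ank1 was at 9608, 10732 and 5669 (-0.89 ± 0.18) and the blood group protein Rhd at 3751, 3546 and 1790 (-0.95 ± 0.21). The water channel Aqp1, at 18708, 22522 and 11236, was lowest at -0.96 ± 0.20, a 1.95-fold fall (z test, adjusted p = 0.00013). The factors Gata1 (-0.69 ± 0.19) and Tal1 (-0.67 ± 0.18), the haem enzymes Urod (-0.70 ± 0.16) and Fech (-0.68 ± 0.17), the spectrin gene Sptb (-0.85 ± 0.21) and the carbonic anhydrase Car2 (-0.78 ± 0.19) were lower as well. The globins Hba-a1 and Hbb-b1 were at -0.67 ± 0.24 each and were called, as was Hba-a2, a copy with the same values, whereas Hbb-b2 and Hbb-bt, with near-identical copies that may share reads, stood at 0.00 ± 0.31. Car1 (-0.55 ± 0.25), Slc4a1 (-0.62 ± 0.28), Alas2 (-0.57 ± 0.24) and Nfe2 (0.21 ± 0.14) were not called. Over the list the summed level was 198736 normalized counts in WT, 244383 in Npm1 and 146816 in Double. Setting the median difference to 0, or removing the GC trend, gave 16 lower genes in place of 21. Over all tested genes these settings gave 383 and 447 lower genes in place of 671.

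**Figure D2:**
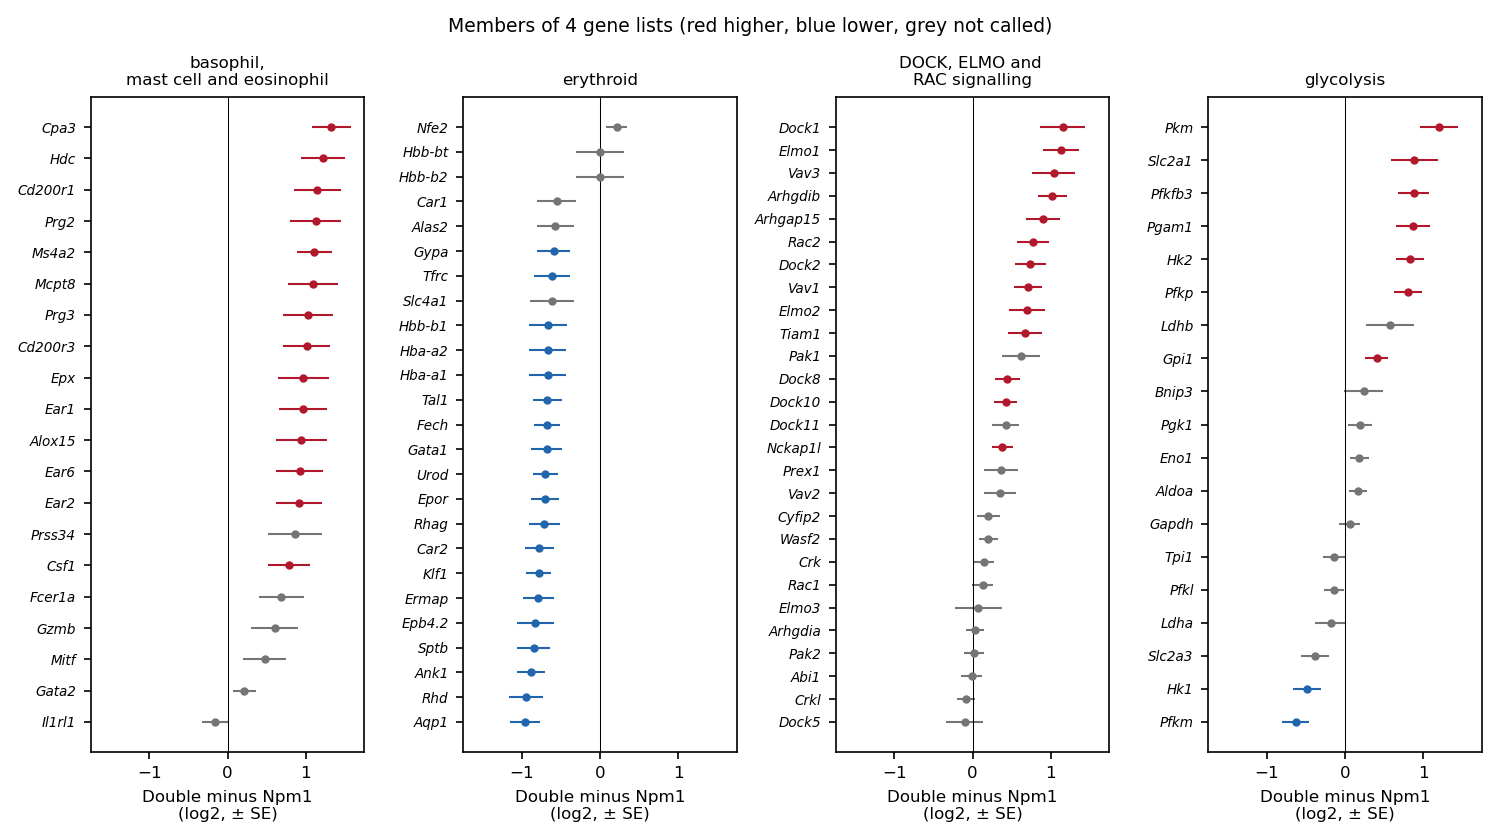
Difference between Double and Npm1 (log2, horizontal axis, bars ± SE) for tested genes of 4 lists, red where called higher, blue where called lower and grey where not called. Cpa3 heads the basophil, mast cell and eosinophil list at 1.33, Aqp1 ends the erythroid list at -0.96, and the glycolysis list has called genes on both sides.

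Of 19 glycolysis genes 7 were higher (36.8%) and 2 lower (10.5%), beside 8.18% and 6.25% of all genes, with a median of 0.19. The pyruvate kinase Pkm stood at 4482 normalized counts in WT, 2636 in Npm1 and 6453 in Double (1.20 ± 0.24, z test, adjusted p = 0.000151). Of the hexokinases, Hk2 was higher, at 924, 620 and 1120 (0.83 ± 0.17), and Hk1, with the larger level, was lower, at 10842, 13499 and 9481 (-0.49 ± 0.18, z test, adjusted p = 0.0471). Of the phosphofructokinases, the platelet form Pfkp was higher (0.80 ± 0.18), the muscle form Pfkm lower (-0.63 ± 0.18) and the liver form Pfkl not called (-0.14 ± 0.13). Of the glucose transporters, Slc2a1 was higher (0.89 ± 0.30) and Slc2a3 was not called (-0.39 ± 0.18). Pfkfb3 (0.88 ± 0.20), Pgam1 (0.86 ± 0.22) and Gpi1 (0.40 ± 0.14) were higher, while Gapdh stood at 0.06 ± 0.13, Ldha at -0.18 ± 0.20 and Tpi1 at -0.14 ± 0.14. With the median difference set to 0 or the GC trend removed, 1 gene was called lower in place of 2. Over all tested genes 383 and 447 were, in place of 671.

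DNA replication genes were lower in part. All 30 genes of S phase and licensing lay below 0, with a median of -0.29 beside -0.08 for all genes, and 8 were called lower (26.7%, beside 6.25% of all genes). The helicase gene Mcm2 stood at 10842 normalized counts in WT, 11279 in Npm1 and 8292 in Double (-0.44 ± 0.12, z test, adjusted p = 0.00379), and the licensing factors Cdc6 and Cdt1 stood at -0.54 ± 0.15 and -0.40 ± 0.13. Ccne1, the cyclin of S phase entry, went from 3611 in Npm1 to 2338 in Double (-0.61 ± 0.18), and the ribonucleotide reductase gene Rrm1 from 15438 to 10902 (-0.49 ± 0.15). This count turned on the settings, at 3 with the median difference set to 0, 5 with the GC trend removed and 21 when the WT part of the variance was taken out. Lower genes among all tested genes turned with them, at 383, 447 and 2193 in the same order, in place of 671. The lists of G2 and M phase and of ribosome biogenesis had lower genes at 7.14% and 6.45%, near the 6.25% of all genes. Of 28 genes of G2 and M phase 2 were lower, the centromere histone Cenpa (-0.49 ± 0.12) and the kinase Plk1 (-0.42 ± 0.13), and the proliferation marker Mki67 was not called at -0.33 ± 0.14. Of 31 ribosome biogenesis genes 2 were lower, the RNA polymerase I subunits Polr1a (-0.49 ± 0.16) and Polr1b (-0.53 ± 0.20), with a median of -0.30, and with the median difference set to 0 or the GC trend removed 0 were. Ccnd1, the cyclin D gene that growth factor signalling raises, was higher, at 315 in WT, 222 in Npm1 and 505 in Double (1.08 ± 0.26, z test, adjusted p = 0.00148), while Ccnd2 (0.09 ± 0.23), Ccnd3 (-0.34 ± 0.20), Cdk6 (0.14 ± 0.12) and Myc (0.00 ± 0.16) were not called.

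HoxA genes, high in both groups with the Npm1 lesion, did not differ past the threshold between them, in 0 of 6 tested. Of all genes 14.4% were called, so a count of 0 in so short a list says little. Hoxa9 stood at 374 normalized counts in WT, 1494 in Npm1 and 1462 in Double (-0.01 ± 0.17, z test, adjusted p = 0.982), and the sign of this small value turned with the median difference set to 0 (0.07) or the GC trend removed (0.06). Hoxa10 stood at 60.1 in WT, 925 in Npm1 and 589 in Double (-0.49 ± 0.28, z test, adjusted p = 0.221). The other 4, Hoxa3, Hoxa5, Hoxa6 and Hoxa7, lay between -0.13 and 0.33, and reads of overlapping transcripts of the cluster cannot be assigned without strand. Neither these p-values nor the SEs of 0.17 to 0.33 show that the levels were alike, and with the WT part of the variance taken out Hoxa10 was called lower (z test, adjusted p = 0.0342). None of 3 HoxB genes and none of 7 cofactor genes was called either, with Meis1 at 493, 462 and 696 (0.55 ± 0.22, adjusted p = 0.0758 by the z test), and 2 cofactor genes, Meis1 among them, were called higher with the median difference set to 0. With the WT part of the variance taken out 1 HoxB gene was called higher. Among all tested genes 1153 were higher with the median difference set to 0 and 1763 with the WT part taken out. Of 18 chromatin regulators of Hox genes 4 were lower (22.2%, beside 6.25% of all genes), namely Mllt3, the chromatin reader Psip1 (-0.41 ± 0.15), the histone methyltransferase Dot1l (-0.33 ± 0.12) and the demethylase Kdm6a, an X-linked gene with a Y-linked partner. With the median difference set to 0 or the GC trend removed 1 was, beside 383 and 447 of all tested genes in place of 671. Kmt2a and Men1, the methyltransferase and scaffold of the complex that menin inhibitors act on, stood at 0.19 ± 0.14 and -0.09 ± 0.15.

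In the lists of signalling responses the shares of called genes stood beside 8.18% higher and 6.25% lower of all genes. They were 3.45% higher and 10.3% lower for type I interferon genes, and higher in 9.09% of NF-kappaB, 4.35% of immediate early, 14.3% of TGF-beta and BMP and 7.69% of MAPK feedback genes, from 1 to 3 genes each. Of 29 type I interferon genes 1 was higher, the membrane protein gene Ifitm2, at 1840 normalized counts in WT, 1094 in Npm1 and 1617 in Double (0.56 ± 0.12, z test, adjusted p = 0.000485), and 3 were lower. The antiviral genes Rsad2, at 387, 221 and 107 (-1.11 ± 0.25), and Oasl1, at 372, 288 and 138 (-1.04 ± 0.23), were below WT in Npm1 and lower still in Double, and Lgals3bp was at -0.47 ± 0.14. Isg15 (-0.27 ± 0.33) and Irf7 (-0.59 ± 0.31) were not called, and the list median was -0.15. NF-kappaB genes had a median of 0.37 with 2 of 22 higher, the adhesion receptor Icam1 (0.81 ± 0.28) and the atypical inhibitor Bcl3 (0.91 ± 0.34), and 4 were with the median difference set to 0 or the GC trend removed. Over all tested genes 1153 and 1075 were higher under these 2 settings, in place of 878. Immediate early genes, which tissue dissociation raises, also had a median of 0.37, with 1 of 23 higher. That gene was Egr1, at 0.85 ± 0.28, but the WT level implied by the 2 comparisons differed for it by -0.33 on the log2 scale, and from the deposited means alone its difference was -0.07. Of 14 TGF-beta and BMP genes the receptor Tgfbr2 (0.67 ± 0.22) and the ubiquitin ligase Smurf1 (0.64 ± 0.21) were higher. Of 13 MAPK feedback genes Ccnd1 alone was called, with Spry2 at 0.63 ± 0.29 and Dusp6 at 0.56 ± 0.32.

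Of 24 p53 targets the DNA repair gene Xpc was called higher, at 887 normalized counts in WT, 691 in Npm1 and 1118 in Double (0.68 ± 0.17, z test, adjusted p = 0.00155), which is 4.17% beside 8.18% of all genes, and the list median was 0.04. Cdkn1a, the p53-induced cell cycle inhibitor, was at 351, 394 and 629 and missed the threshold at 0.62 ± 0.24 (z test, adjusted p = 0.0571). It was called higher with the median difference set to 0 (0.70, adjusted p = 0.0271 by the z test), the GC trend removed (adjusted p = 0.0375) or the WT part of the variance taken out (adjusted p = 0.00138). Ccng1, at 2282 in WT, 5448 in Npm1 and 4269 in Double, stood at -0.30 ± 0.22, and Mdm2 and Phlda3 at 0.02 ± 0.12 and 0.05 ± 0.28. Among 20 genes of the unfolded protein and integrated stress responses the asparagine synthetase gene Asns was lower, from 4676 in Npm1 to 2684 in Double (-0.77 ± 0.18, z test, adjusted p = 0.00123), while the chaperone genes Sdf2l1 (0.54 ± 0.18) and Pdia4 (0.38 ± 0.14) were higher, and both shares were near those of all genes. Hspa5 (0.16 ± 0.18), Atf4 (-0.10 ± 0.14) and Ddit3 (-0.35 ± 0.20) were not called. None of 18 cholesterol synthesis genes was called, beside 14.4% of all genes, with a median of -0.14.

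**Figure D3:**
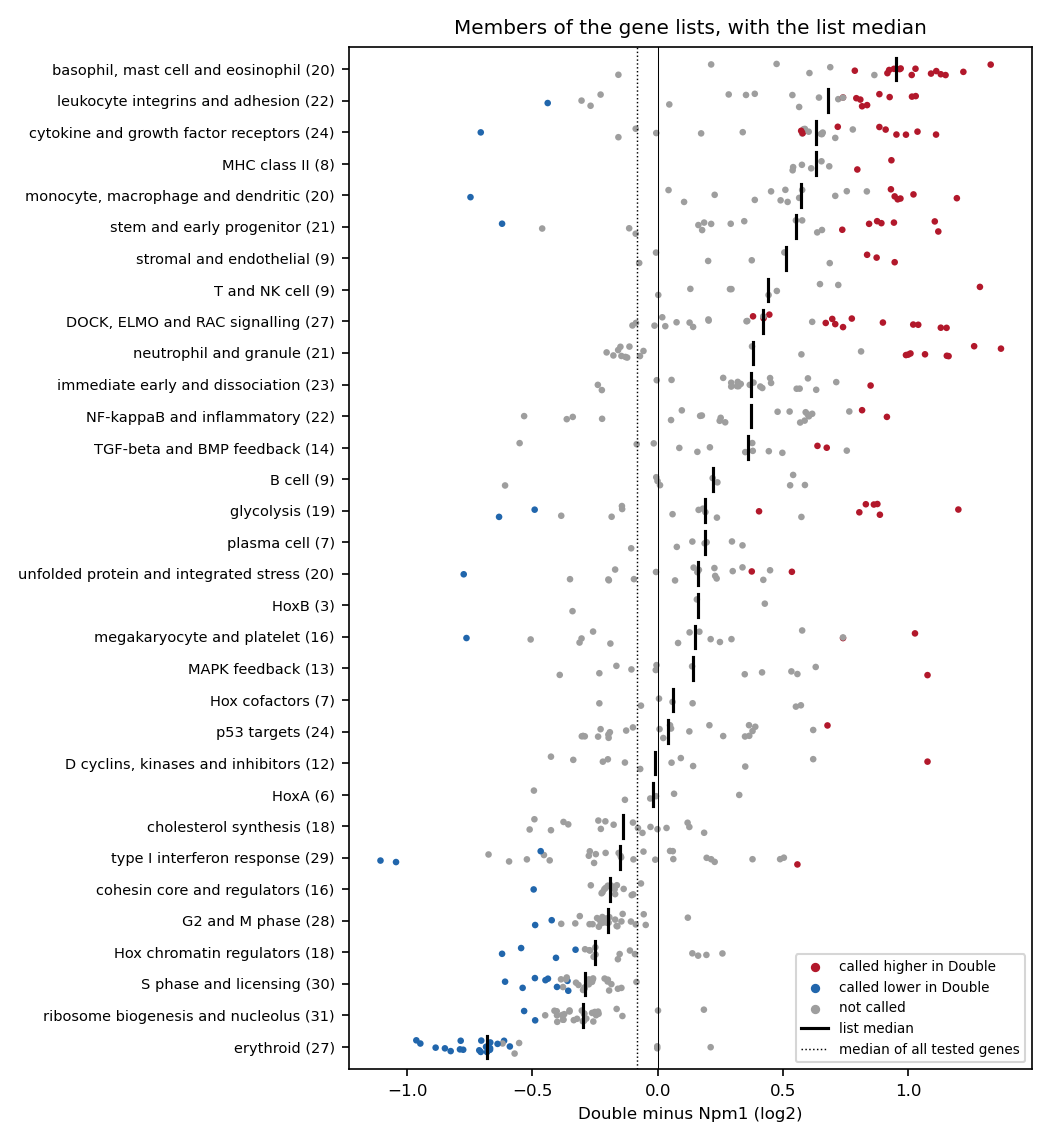
Each point is a tested gene of the list named at left (number tested in brackets), placed by its difference between Double and Npm1 (log2), with the list median as a black bar and the median of all tested genes, -0.08, as a dotted line. The erythroid list lies lowest, with a median of -0.68, and the basophil, mast cell and eosinophil list highest, at 0.95.

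Markers of other cell types were read beside these lists, and which of them the lineage depletion targeted is not known here. None of 9 B cell genes and none of 7 plasma cell genes tested was called, beside 14.4% of all genes, so counts of 0 in such short lists say little. A further 12 B cell genes, Pax5 and Ebf1 among them, lay below the mean of 50. The summed level of the plasma cell list was 28467 normalized counts in WT, 26446 in Npm1 and 28303 in Double. Of this Igj held 25394, 23748 and 25010, so RNA of such cells was present in all 3 groups. Of 9 T and NK cell genes 1 was higher (11.1%, beside 8.18% of all genes). That was the granule membrane gene Nkg7, at 708 normalized counts in WT, 453 in Npm1 and 1172 in Double (1.28 ± 0.23, z test, adjusted p = 2.06e-05). Genes of the T cell receptor complex, Cd3e, Cd3d and Cd3g, lay below 50. The summed level of the T and NK list was 1932 in WT, 1588 in Npm1 and 2846 in Double. Of 9 stromal and endothelial genes 3 were higher (33.3%, beside 8.18% of all genes). These were the angiopoietin gene Angpt1 (0.87 ± 0.17), Pecam1 (0.83 ± 0.26) and Pdgfrb (0.94 ± 0.26), of which progenitors are known to express Angpt1 and Pecam1. The collagen genes Col1a1 (-0.07 ± 0.31) and Col1a2 (-0.01 ± 0.33) were not called. Over the stromal and endothelial list the summed level was 5990, 5295 and 7197, and the part of these lists in the results above was not tested. Of 16 megakaryocyte genes 2 were higher (12.5%) and 1 lower (6.25%, the share of all genes). The ETS factor Fli1 (1.03 ± 0.24) and the integrin Itga2b (0.74 ± 0.25) were higher, and Zfpm1, the Gata1 cofactor that erythroid cells share, went from 7540 in Npm1 to 4386 in Double (-0.76 ± 0.15, z test, adjusted p = 8.21e-05). Pf4 (0.13 ± 0.31), Vwf (-0.31 ± 0.25) and Gp5 (-0.51 ± 0.22) were not called.

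Of the genes with the largest differences most stood in no list. Higher in Double, after the serpin Serpina3f (1.70 ± 0.34), came the NK receptor-like gene Klrb1f at 1.56 ± 0.27, the sphingomyelin synthase Sgms2 at 1.53 ± 0.27 and the thyroid hormone deiodinase Dio2, at 279 normalized counts in WT, 206 in Npm1 and 628 in Double (1.53 ± 0.21, z test, adjusted p = 5.55e-09). The mitochondrial adenylate kinase Ak4 (1.45 ± 0.26), the receptor Trem3 (1.41 ± 0.27), Tespa1 (1.41 ± 0.26), the granule tetraspanin Cd63 (1.39 ± 0.25), the glutathione transferase Gstm1 (1.38 ± 0.27), the cholesterol acyltransferase Soat1 (1.38 ± 0.28), the lipase Aoah (1.36 ± 0.31), the orphan receptor Gpr141 (1.36 ± 0.34) and the matrix protein Tgfbi (1.34 ± 0.32) followed. The implied level of each of these was above WT in Double and below WT in Npm1. For Serpina3f and Gpr141 the deposited means alone gave larger differences, 2.86 and 2.26.

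Spon2, a secreted matrix protein, was lowest in Double, at 321 normalized counts in WT, 203 in Npm1 and 47.9 in Double (-2.38 ± 0.30, z test, adjusted p = 3.1e-11). From the deposited means alone its difference was -0.97, and for AA465934 (-1.11 ± 0.31) it was -0.39, so these 2 sizes are uncertain. The X-linked glypican gene Gpc4 went from 402 in WT and 381 in Npm1 to 120 in Double (-1.58 ± 0.26, z test, adjusted p = 1.67e-06). Fads3, a desaturase family gene, was above WT in Npm1 and below it in Double, at 777, 1217 and 521 (-1.19 ± 0.17, z test, adjusted p = 5.94e-09), as was the aldehyde dehydrogenase Aldh1a7 at 1008, 1602 and 650 (-1.20 ± 0.25). The protease gene Prss50 (-1.30 ± 0.27), the tetraspanins Tspan15 (-1.28 ± 0.31) and Tspan8 (-1.15 ± 0.21), the phosphatase Ptpn13 (-1.26 ± 0.30), the transporter Slc6a20a (-1.26 ± 0.32), Sowaha (-1.24 ± 0.23), Igsf3 (-1.20 ± 0.21), the ubiquitin ligase Trim2 (-1.20 ± 0.28) and Tmem246 (-1.15 ± 0.28) completed the lower genes named. The higher and lower genes differed little from all genes in GC content (medians 50.4% and 51.7%, against 50.2%) and were from somewhat longer transcripts (3163 and 3462 bases, against 2931).

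Whether the Smc3 lesion had another effect with the Npm1 lesion than without it was asked by setting Double minus Npm1 against Smc3 minus WT. On both sides a group with Y-linked reads was set against a group with next to none, so the part of sex and that of the Smc3 lesion cannot be told apart on either side, and a sex difference shared by both would cancel. Of 10718 genes 0 were called (0% of those tested, z test, Benjamini-Hochberg), with 239 at an unadjusted p under 0.05, which is 2.23%, and the smallest adjusted p was 0.0665, for Spon2. The median SE of this difference was 0.22, so the comparison could miss differences of moderate size. With the WT variance counted once 4 genes were called, Egr1, Spon2, Serpina3f and AA465934, and for each the WT level implied by the Npm1 and Double comparisons differed by more than 0.2 on the log2 scale. Side by side, Cpa3 stood at 1.33 ± 0.17 for Smc3 against WT in the authors' deposited table and at 1.33 ± 0.24 for Double against Npm1, a difference of 0.00 ± 0.30. Csf2rb stood at 1.03 and 1.11 and Rsad2 at -1.20 and -1.11, the first of each pair from the authors' deposited table. Values further apart were those of Dock1, at 0.36 and 1.15 (difference 0.80 ± 0.35, unadjusted z test p = 0.0232, adjusted p = 1), Pkm, at 0.57 and 1.20 (unadjusted p = 0.033), and Aqp1, at -0.31 and -0.96 (unadjusted p = 0.0158), the first of each again from the authors' deposited table. Since none passed the adjusted threshold, these are values side by side and not a difference between backgrounds.

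**Figure D4:**
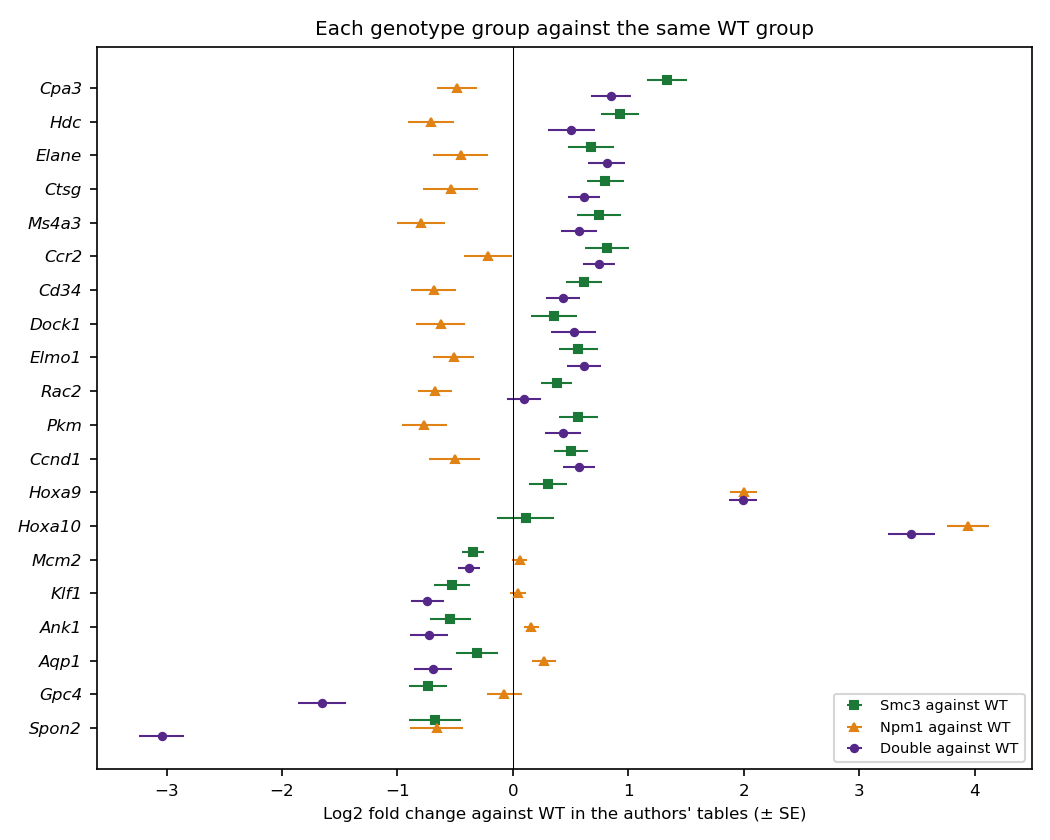
Log2 fold change against the same WT group (horizontal axis, bars ± SE of the authors' fit) in Smc3 (green squares), Npm1 (orange triangles) and Double (purple circles) for 20 genes. For genes from Cpa3 to Ccnd1 Npm1 lies left of 0 and Double right of it, for Mcm2, Klf1, Ank1 and Aqp1 Npm1 lies close to 0 or right of it and Double left, and for Hoxa9 both lie near 2.00.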

How the data were processed

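RNA-seq of lineage-depleted mouse HSPCs was read from 3 tables in which the authors compared Smc3, Npm1 and Double with WT, 3 libraries a group. Per the submitters' processing notes, the authors aligned reads to mm9 with STAR and ran DESeq2. Their versions and the way reads were counted were not given in the sources used here. Per the file headers the deposited tables hold, for 33018 transcripts, a mean of normalized counts (a signal), a log2 fold change with its SE, a Wald score, a p-value and an adjusted p-value. The authors' log2 fold changes are moderated, which lowers the size of uncertain changes. The tables hold no values per library.

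Transcripts were joined by accession, which also restored 53 symbols turned into dates, and 4911 genes had several transcripts. Double minus Npm1 was tested with a two-sided normal z test on the difference of the deposited log2 fold changes, with the squared SEs summed. Counting the shared WT libraries in both SEs makes the summed SE larger. The SEs are those of moderated fold changes, however, so for genes with a wide spread between libraries they may be too small. A call need thus not be conservative. Ear1, for one, was called with an SE of 0.30 while its implied WT level differed by 1.90 on the log2 scale between the comparisons. P-values were adjusted by Benjamini-Hochberg over all genes with a mean of at least 50 in both tables. The settings that lessen the WT part of the variance assume that WT and the other group contribute equally to each squared SE. Simulated data were used to test the code. The z test needs no library values, and gene lists were described by counts and medians with no test.

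Members and the 33 lists were chosen with earlier results of these data known. Genes named by rule were Smc3, Npm1, Dock1, Rac2, Hoxa9, Hoxa10, Meis1 and Cdkn1a, the 14 most positive and 14 most negative called differences, and up to 4 called members of a list with the smallest p, without receptor segments and Gm or Rik symbols. Some members that are in the counts are not reported here by name. Other list members are given as examples on either side of the threshold, chosen after their values were seen. Levels of each group were computed from a table's mean and fold change, with the Double table divided by 1.30, the ratio of WT scales between the tables (1.29 to 1.31 over the libraries). GC content was known for 99.6% of genes, from GRCm38 transcripts. Removal of the GC trend also moved the level of the differences, so it overlaps with centring. Alternatives were other filters on the mean, centring, removal of the GC trend, other transcripts for a gene, a stricter adjustment and a smaller variance, and, added after seeing the data, leaving out X and Y genes and applying the same settings to counts of list members. Python 3.11.15, pandas 2.3.3, numpy 2.4.6, scipy 1.17.1, statsmodels 0.14.6 and matplotlib 3.10.9 were used.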

Additional observations from a re-analysis of the deposited data

Results flagged for a closer look

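Reads of Y-linked genes appeared in a comparison that was not designed around sex. The summed mean of Ddx3y, Eif2s3y, Kdm5d and Uty was 2280 normalized counts over the Double and WT libraries, against 3.80 over the Npm1 and WT libraries. As WT is in both, the reads came from Double libraries. The Smc3 and WT libraries had 2022, so Smc3 held Y-linked reads too. The moderated fold changes hide this, at 0.06 to 0.08 for the 4 genes in the Double comparison of the authors' deposited table. By the deposited means Double minus Npm1 was -17196 normalized counts for Xist, while its difference of moderated fold changes was -0.03 ± 0.15. How many of the 3 Double libraries were male cannot be read from the tables.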

How the results depend on the processing

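The count of 1549 genes became 3956 (1763 higher, 2193 lower) when the WT part of the variance was taken out and 505 (291 higher, 214 lower) with Benjamini-Yekutieli adjustment, and lay between 1245 and 1564 under the other 10 settings. With the median difference set to 0, 1261 of the 1549 genes kept their call, and with the GC trend removed 1325 did. The first of these settings called 1153 genes higher and 383 lower, and the second 1075 higher and 447 lower. As the second also moved values upward, it is not a check apart from the first. Lower S phase genes numbered 21 without the WT part, 3 with the median difference set to 0, 5 with the GC trend removed and 1 with Benjamini-Yekutieli adjustment. That adjustment gave 11 lower erythroid genes, and 4 basophil list, 8 DOCK list and 5 neutrophil genes that were higher. Higher stem genes numbered 12 without the WT part. Higher basophil list genes numbered 7 with a mean of at least 200, a filter that also took members such as Cd200r1 out of the test. Over all genes 591 were higher with that filter. The sign turned for Hoxa9 with the median difference set to 0 (0.07) and the GC trend removed (0.06), and for Egr1 from the deposited means (-0.07). Of the 106 genes named by rule 100 were called, and 28 lost the call with Benjamini-Yekutieli adjustment, 10 with the median difference set to 0, 8 with no filter on the mean and 6 with the GC trend removed. With the WT part taken out 3 gained it, Hoxa10, Meis1 and Cdkn1a, and the latter 2 also with the median difference set to 0 or the GC trend removed. The test of the Smc3 effect with and without the Npm1 lesion gave 4 genes with the WT variance counted once and 0 under its other settings. A smaller variance and a stricter adjustment move counts by construction, and for the other settings the cause was not tested. No paired analysis was possible because the tables hold no values per library, and for the same reason leaving out single libraries was not run.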
